A study of Rattus norvegicus with 9 samples.

Results

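The C/EBP (CCAAT/enhancer-binding protein) family was taken here as 5 genes, Cebpa, Cebpb, Cebpd, Cebpe and Cebpg, out of 30507 rows in the gene count table. Ddit3, which encodes the related protein CHOP, was not in this set and is given below with the partners. The members were chosen by gene symbol, and each symbol matched 1 row. The only measured value in the selection was the total count that would decide between rows with the same symbol, and it decided no member. The family itself was picked with other results of these libraries known, so the tests below describe its genes and are not independent evidence that the family stands apart.

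C/EBP proteins are basic leucine zipper (bZIP) transcription factors. They bind DNA only as dimers, with each other or with related bZIP proteins such as ATF4 and CHOP, and the dimer decides which genes are switched on. C/EBPα sets the myeloid programme and arrests proliferation, C/EBPβ and C/EBPδ are induced by interleukin-6, interleukin-1 and lipopolysaccharide and drive acute phase and inflammatory genes, C/EBPε is needed for the late granules of neutrophils, and C/EBPγ lacks a strong activation domain and acts mainly as a dimer partner. In the central nervous system, C/EBPβ and C/EBPδ are best known in activated microglia and astrocytes.

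RNA was sequenced from spinal cord tissue of 9 female wild-type Sprague-Dawley rats killed 35 days after surgery. The Sham group (n = 3) had a laminectomy without injury and carries the label "No treatment"; the SCI group (n = 3) had a contusion of the thoracic cord at T10; the SCI + SCS group (n = 3) had the same contusion followed by high-frequency spinal cord stimulation (HF-SCS), delivered through implanted epidural electrodes. Rats with electrodes but no current were not among the libraries, so implant and current cannot be told apart in SCI + SCS against SCI. The comparisons ask what the injury left behind at 35 dpi (days post-injury), and how stimulated cords differed from unstimulated injured cords and from Sham. Whole tissue was used, so fewer cells of a type and less RNA per cell cannot be told apart.

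Library totals ran from 62844376 to 88358570 counts. Neuronal markers (12 of 12) summed to 5033 to 11229.8 CPM in Sham, 771 to 2601 in SCI and 2356 to 3950 in SCI + SCS, and oligodendrocyte markers (9 of 9) to 59961 to 83914, 17948 to 33640 and 31240.3 to 37132 CPM, with none at 0 throughout; CPM are read counts scaled to library size and TMM-normalised. Summed microglia and macrophage markers (14 of 15 listed genes in the table, none at 0 throughout) ranged over 456 to 805 CPM in Sham, 4263 to 5279 in SCI and 3403 to 3926 in SCI + SCS. Summed neutrophil markers (10 of 10, with the granule gene Ltf at 0 throughout) ranged over 4.02 to 9.38, 18.7 to 38.0 and 21.2 to 42.5 CPM, and adipocyte markers (11 of 11, with Lep at 0 throughout) over 58.1 to 87.4, 193 to 209 and 103 to 134 CPM. Fibroblast markers (8 of 8, all called higher in SCI) ranged over 513 to 2223, 3864 to 6009 and 2400 to 4048 CPM, and T and B lymphocyte markers (12 of 13) over 24.8 to 61.0, 136 to 201 and 113 to 150 CPM, with none at 0 throughout. Most of the lymphocyte sum was Cd4, at 21.2 to 56.4, 106 to 172 and 99.1 to 139 CPM. Of the 12 lymphocyte markers tested, 7 had every SCI + SCS library below every SCI library and 0 above. That pattern was shared by 13.9% of all genes below. Skeletal muscle markers (12 of 17) summed to 4304 CPM in SCI replicate 1, 36.0 in SCI replicate 2 and 1318 in SCI replicate 3, against 43.1 to 143 in the other 6 libraries.

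The promoters of the family differ in their letters. Of the 5 members, 4 had a promoter in the RefSeq table for build GRCr8, a newer rat assembly than the mRatBN7.2 named for the files; Cebpd had none. Cebpb and Cebpg are shown, as the member with the smallest p and the member with the smallest absolute log2FC between SCI + SCS and SCI. Each run is the 250 bases before the annotated start, 5′ to 3′ on the gene's strand, with motif matches in capitals.
Cebpb, chr3:176816755-176817004, plus strand: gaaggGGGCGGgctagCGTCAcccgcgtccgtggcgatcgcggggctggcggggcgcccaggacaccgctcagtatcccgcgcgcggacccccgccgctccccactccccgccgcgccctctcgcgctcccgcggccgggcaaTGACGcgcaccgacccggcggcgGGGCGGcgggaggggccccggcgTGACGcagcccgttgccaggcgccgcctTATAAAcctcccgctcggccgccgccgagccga
Cebpg, chr1:96829737-96829986, minus strand: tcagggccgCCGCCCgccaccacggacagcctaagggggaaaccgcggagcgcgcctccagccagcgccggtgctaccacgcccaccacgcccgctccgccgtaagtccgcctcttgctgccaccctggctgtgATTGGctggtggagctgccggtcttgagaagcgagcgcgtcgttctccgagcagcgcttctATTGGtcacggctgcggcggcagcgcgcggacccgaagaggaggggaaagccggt
Motifs were searched on both strands for the TATA box as TATAAA, the CCAAT box by those letters, the core of the cyclic AMP response element as TGACG, the palindromic C/EBP motif as TTGNNCAA, the C/EBP-ATF motif as TTGCATCA, the STAT motif as TTCNNNGAA and the GC box as GGGCGG. No match overlapped another. Cebpb held 1 TATA box, 33 bases before the start, 3 matches to TGACG at 234, 107 and 61 bases before it, and 2 GC boxes. Cebpg held no TATA box, 2 CCAAT boxes at 116 and 55 bases before the start and 1 GC box. Cebpa held a TATA box 35 bases before its start and 2 GC boxes, and Cebpe held a single STAT match at 213 bases. Neither C/EBP motif occurred in any of the 4 windows. Among 33469 rat promoter windows of this length, TATAAA occurred in 12.9%, CCAAT in 34.0%, TGACG in 18.2%, TTGNNCAA in 5.25%, TTGCATCA in 0.693%, TTCNNNGAA in 7.67% and GGGCGG in 30.5%. The window of Cebpb was 80.0% G and C and that of Cebpg 70.4%, against a mean of 52.2% over all windows. A match is a string of letters in a window and was not tested as a bound site.

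Levels between genes were compared per length, as FPKM (fragments scaled to gene length and library size) deposited by the authors. In Sham cords, Cebpd stood highest at 9.98 ± 3.81 FPKM (SD, n = 3, as for all group means here), followed by Cebpg at 6.42 ± 0.326, Cebpb at 4.25 ± 1.95, Cebpa at 2.95 ± 0.621 and Cebpe at 0.0319 ± 0.0278. Each of the 4 more abundant members overlapped its neighbour in that order. In SCI cords, Cebpd reached 53.2 ± 16.2 FPKM, Cebpb 18.0 ± 3.71, Cebpa 15.7 ± 1.86, Cebpg 9.67 ± 0.325 and Cebpe 0.288 ± 0.0409. Cebpb and Cebpa overlapped there, and Cebpg, second in Sham, stood below both. In SCI + SCS cords the order was Cebpd at 39.4 ± 6.90 FPKM, Cebpa at 12.8 ± 1.20, Cebpg at 10.02 ± 0.418, Cebpb at 7.67 ± 1.24 and Cebpe at 0.125 ± 0.0214, and no neighbours overlapped. Cebpb thus stood above Cebpa and Cebpg in SCI and below both in SCI + SCS; for Cebpa in SCI the ranges overlapped.

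**Figure D1:**
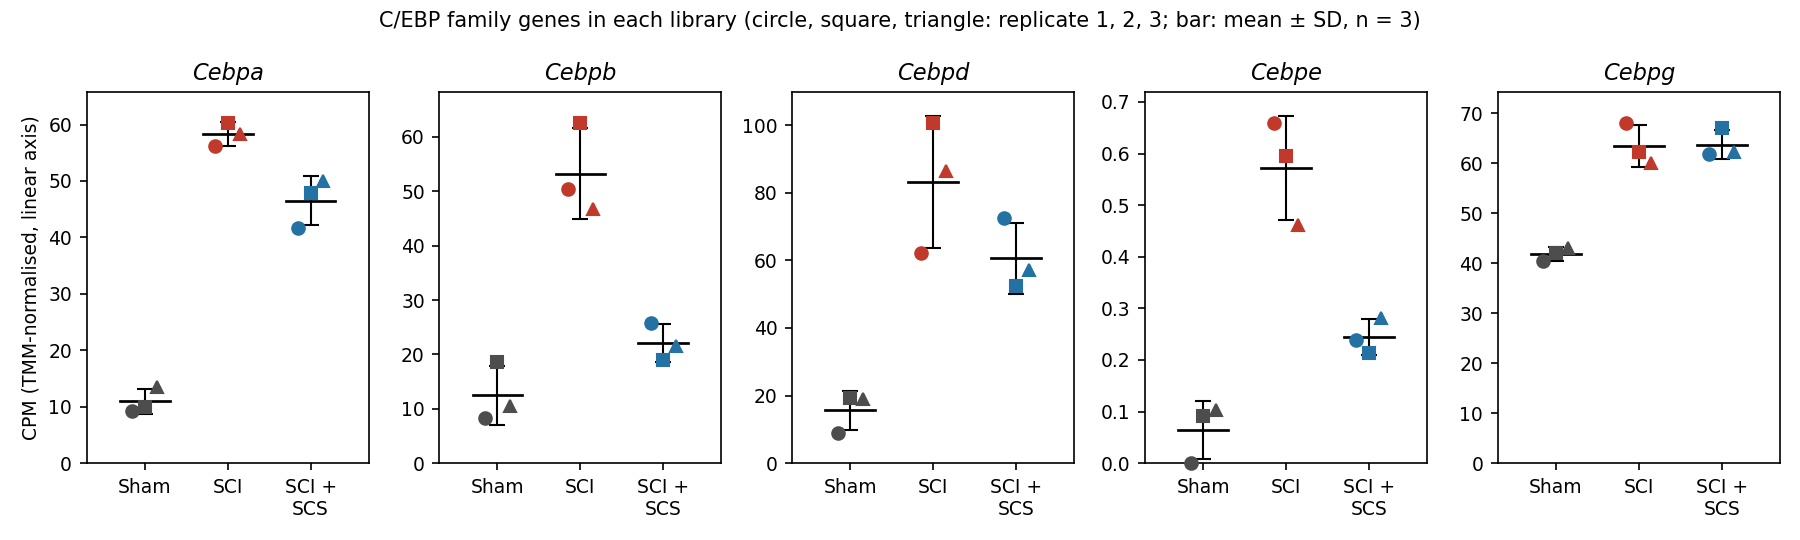
Level of each C/EBP gene in CPM (TMM-normalised, linear axis from 0, separate scale per gene) in the 9 libraries, with points for replicates and bars for mean ± SD, n = 3 per group. Every SCI library lies above every Sham library for all 5 genes, and the SCI + SCS libraries lie below every SCI library for Cebpa, Cebpb and Cebpe.

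After injury, 4 of the 5 members (Cebpa, Cebpb, Cebpd and Cebpe) were higher than in Sham, past an adjusted p of 0.05 and a log2 fold change (log2FC) of 1 in edgeR's quasi-likelihood test, against 13.4% of the 17822 genes tested. With the adjusted p alone all 5 were higher, against 24.3% of genes. For all 5, every SCI library was above every Sham library, a pattern that 32.6% of tested genes shared.

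Cebpa, the myeloid lineage factor, was at 9.31, 9.99 and 13.5 CPM in the 3 Sham libraries and at 56.2, 60.3 and 58.4 CPM in the 3 SCI libraries. The SCI libraries were close together and all far above Sham. Cebpa rose 5.26-fold (log2FC 2.40 ± 0.16 SE, edgeR adjusted p = 0.000972). Its row in the files, ENSRNOG00000010918 (mRatBN7.2, chromosome 1, 87759433 to 87762412), is typed as a lncRNA on the minus strand, whereas RefSeq lists Cebpa as protein-coding on the plus strand of chromosome 1. An unnamed plus-strand row inside it, ENSRNOG00000068513, held 0 counts. Whether strand was used in counting is not given in the sources used here, so reads of the 2 strands cannot be told apart in the row called Cebpa, and its length in FPKM is that of this row.

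Cebpb, the inflammatory member (ENSRNOG00000057347, chromosome 3, 156397052 to 156399473, protein-coding, plus strand), was at 8.32, 18.6 and 10.5 CPM in Sham and at 50.3, 62.6 and 46.7 CPM in SCI. Sham replicate 2 was the high one of its group and still lay well below the lowest SCI library. Cebpb rose 4.21-fold (log2FC 2.08 ± 0.31 SE, edgeR adjusted p = 0.00314).

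Cebpd, its partner in the acute phase response (ENSRNOG00000050869, chromosome 11, 84764565 to 84765829, protein-coding, plus strand), was at 9.04, 19.1 and 18.8 CPM in Sham and at 62.1, 101 and 86.3 CPM in SCI. Its SD in CPM was larger in SCI (19.5) than in Sham (5.74), around a higher mean, and the lowest SCI library was replicate 1. Cebpd rose 5.23-fold (log2FC 2.39 ± 0.33 SE, edgeR adjusted p = 0.00254).

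Cebpe, the granulocyte member (ENSRNOG00000014282, chromosome 15, 28169704 to 28171814, protein-coding, minus strand), was near the limit of detection. It had 0, 8 and 9 counts in Sham and 52, 42 and 32 counts in SCI. In the Sham library at 0, up to 3 counts are allowed by a count of 0, or 0.0472 CPM (counting error only). The fitted log2FC was 3.04 ± 0.80 SE (edgeR adjusted p = 0.0203). The call was the least stable of the family and was lost on leaving out Sham replicate 2 (edgeR adjusted p = 0.0606) or SCI replicate 1, 2 or 3 (0.0556, 0.0587 and 0.0523).

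Cebpg, the ubiquitous dimer partner (ENSRNOG00000021144, chromosome 1, 87684019 to 87694569, protein-coding, minus strand), had the smallest log2FC in edgeR; on log2(FPKM + 1) that of Cebpe was smaller (0.32 against 0.52). It was at 40.4, 42.1 and 43.1 CPM in Sham and at 68.1, 62.2 and 59.9 CPM in SCI, tight within both groups. The difference was 1.496-fold (log2FC 0.58 ± 0.09 SE, edgeR adjusted p = 0.00341), past the adjusted p and short of the fold threshold.

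**Figure D2:**
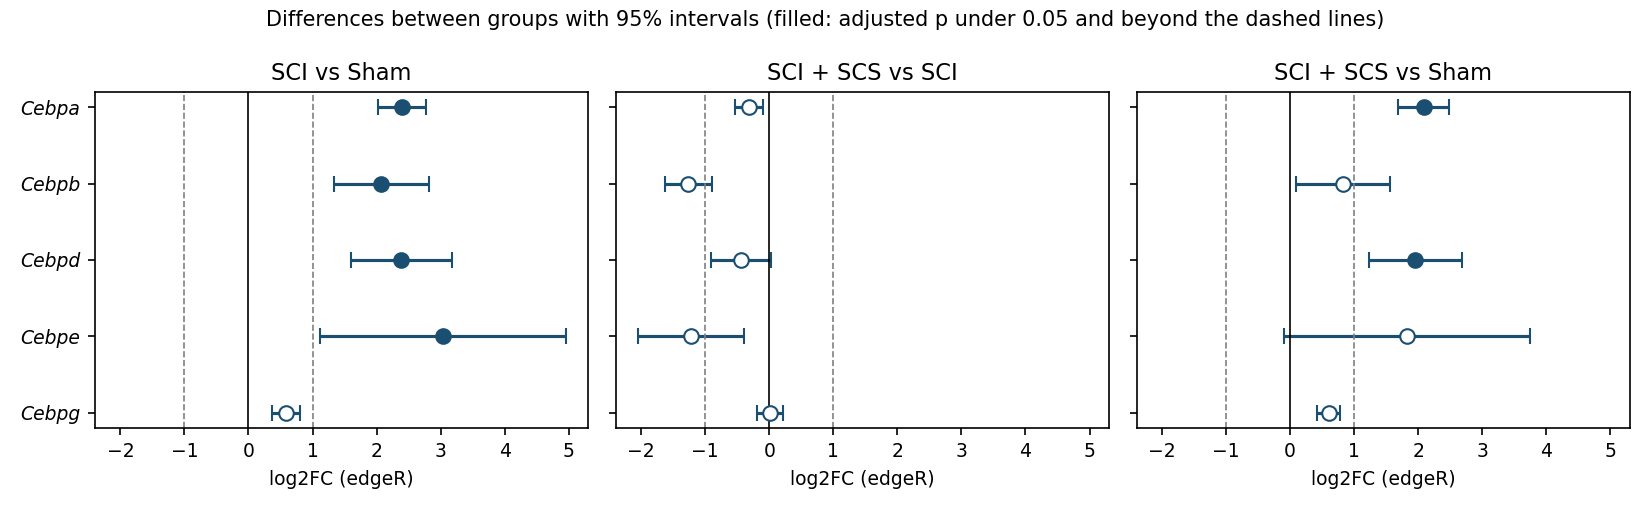
log2FC of each C/EBP gene from edgeR in the 3 comparisons (x axis, log2 units; bars, 95% intervals; filled points, adjusted p under 0.05 and past the dashed fold thresholds). The points for SCI against Sham lie between 0.58 and 3.04, and those for SCI + SCS against SCI between -1.26 and 0.02 with none filled.

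In stimulated cords, 0 of the 5 members passed the adjusted p and the fold threshold against SCI in edgeR, where 1 of 17663 genes did (0.00566%). At an unadjusted p under 0.05, 3 members were lower (Cebpa, Cebpb and Cebpe), against 10.9% of genes, and 2 of these also passed the fold threshold (Cebpb and Cebpe), against 2.56%. DESeq2 called 1 member lower, Cebpb, against 1.58% of the 22068 genes it tested, and limma on log2(FPKM + 1) or log2(FPKM + 0.1) called 0. Cebpe had no adjusted p in DESeq2 (log2FC -1.23, DESeq2 unadjusted p = 0.0118) and counted as not called. The same 3 members had every SCI + SCS library below every SCI library, as had 13.9% of tested genes. SCI is the group compared in both this contrast and the one before it, so a member that was high in the SCI libraries stands high in the first and low in the second through the same values.

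Cebpb had the smallest p of the family. It was at 25.9, 18.9 and 21.5 CPM in SCI + SCS, against 46.7 to 62.6 CPM in SCI. All 3 stimulated libraries lay between the highest Sham library and the lowest SCI library, and the lowest of them was close to Sham replicate 2. Cebpb was 2.40-fold lower (log2FC -1.26 ± 0.16 SE, 95% interval -1.63 to -0.89), with an unadjusted p = 8.19e-05 that ranked 14 of 17663 genes and an edgeR adjusted p = 0.0719 that missed the threshold. DESeq2 gave a log2FC of -1.27 with adjusted p = 5.94e-10. Without SCI + SCS replicate 1 the edgeR adjusted p was 0.0499, and over all the refits its adjusted p ranged from 5.94e-10 to 0.278 while the log2FC stayed between -1.39 and -1.13.

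Cebpe had 17, 15 and 18 counts in SCI + SCS against 52, 42 and 32 in SCI. The ranges did not overlap. It was 2.32-fold lower (log2FC -1.22 ± 0.35 SE, edgeR adjusted p = 0.113), close in size to Cebpb. The summed neutrophil markers overlapped between the groups. Of 8 such markers tested, 5 had a positive log2FC and 3 a negative one, with Mmp8 the lowest (-1.93) and without overlap. The part of neutrophils in the difference of Cebpe was not tested.

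Cebpa was at 41.6, 48.0 and 49.95 CPM in SCI + SCS, all below the lowest SCI library at 56.2 CPM (log2FC -0.32 ± 0.09 SE, 1.25-fold, edgeR adjusted p = 0.115). Cebpd was at 72.4, 52.4 and 57.0 CPM, and its highest library overlapped the SCI range (log2FC -0.44 ± 0.20 SE, edgeR adjusted p = 0.225, 95% interval -0.91 to 0.02).

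Cebpg was at 61.8, 67.0 and 62.3 CPM, within the range of SCI. Its log2FC was 0.02 ± 0.08 SE (edgeR adjusted p = 0.932), with a 95% interval from -0.19 to 0.22, and its sign turned negative on leaving out SCI replicate 2 or 3 or SCI + SCS replicate 2.

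Against Sham, 2 of 5 members were still called higher in SCI + SCS (Cebpa and Cebpd), against 6.28% of the 17640 genes tested, and 3 by adjusted p alone (Cebpg with them), against 16.2%. For all 5, every SCI + SCS library lay above every Sham library, as for 27.2% of genes. Cebpa was 4.25-fold higher (log2FC 2.09 ± 0.17 SE, edgeR adjusted p = 0.00315), and Cebpd 3.87-fold higher (log2FC 1.95 ± 0.30 SE, edgeR adjusted p = 0.00784). Cebpg was 1.52-fold higher (log2FC 0.61 ± 0.07 SE, edgeR adjusted p = 0.00466). Cebpb had a log2FC of 0.83 ± 0.30 SE (edgeR adjusted p = 0.0794), with the lowest SCI + SCS library at 18.9 CPM and the highest Sham library at 18.6 CPM. Without that Sham library, replicate 2, Cebpb passed both thresholds (log2FC 1.23, edgeR adjusted p = 0.0316). Cebpe had a log2FC of 1.83 ± 0.80 SE (edgeR adjusted p = 0.122).

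The make-up of the family was followed as shares within each library, where no scaling between libraries enters. The summed FPKM of the 5 genes, which does depend on scaling to library size, was 23.6 ± 6.02 in Sham, 96.9 ± 21.6 in SCI and 70.1 ± 6.78 in SCI + SCS. Cebpg made up 28.3% ± 6.68 of that sum in Sham, 10.3% ± 2.14 in SCI and 14.4% ± 1.89 in SCI + SCS. Cebpd made up 41.1% ± 6.95, 54.1% ± 5.48 and 56.0% ± 4.27. Cebpb made up 17.6% ± 4.66 in Sham and 18.8% ± 2.10 in SCI, and 10.9% ± 0.714 in SCI + SCS. Its share in the 3 stimulated libraries, at 10.2% to 11.6%, lay below both the Sham range of 13.8% to 22.8% and the SCI range of 16.6% to 20.7%.

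**Figure D3:**
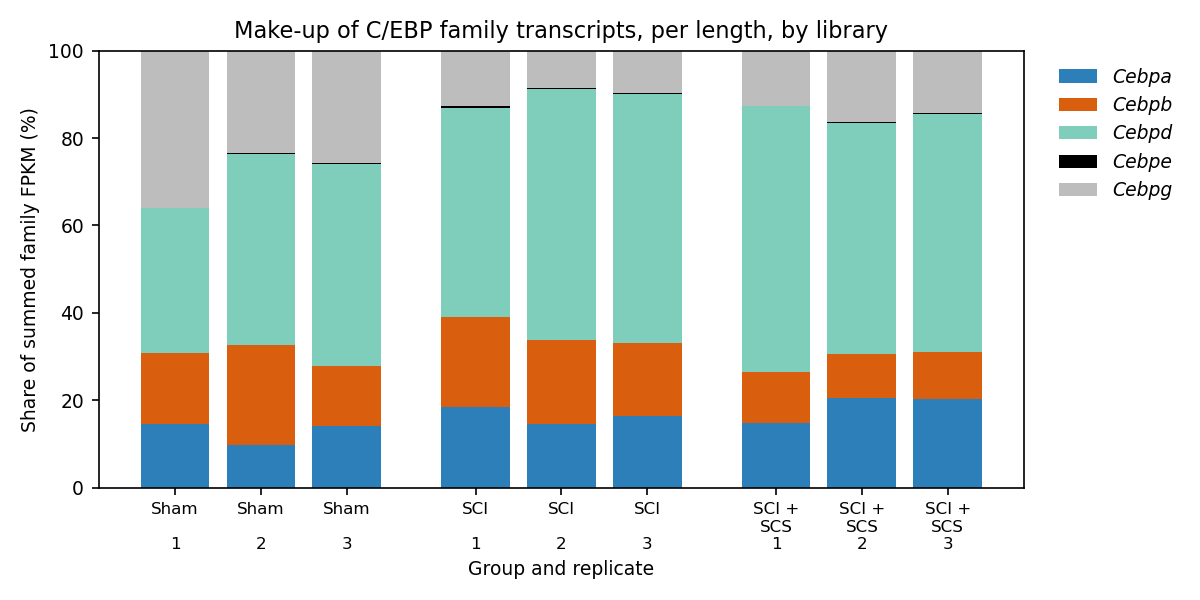
Stacked bars of the share (%) of the summed C/EBP family FPKM held by each gene in each of the 9 libraries. The Cebpb segment spans 13.8% to 22.8% in Sham, 16.6% to 20.7% in SCI and 10.2% to 11.6% in SCI + SCS, while the Cebpg segment is widest in Sham.

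Ratios of counts between members do not depend on the length assigned to a gene in comparisons across libraries. The ratio of Cebpb to Cebpd was 0.920, 0.972 and 0.557 in Sham, 0.811, 0.622 and 0.542 in SCI, and 0.357, 0.361 and 0.377 in SCI + SCS. The 3 stimulated libraries were nearly equal and lay below all 6 others. The ratio of Cebpa to Cebpb was 1.12, 0.537 and 1.29 in Sham, 1.12, 0.964 and 1.25 in SCI, and 1.61, 2.53 and 2.33 in SCI + SCS, where it was above all 6 others. The ratio of Cebpb to Cebpg was 0.206, 0.442 and 0.243 in Sham, 0.739, 1.01 and 0.780 in SCI, and 0.418, 0.282 and 0.345 in SCI + SCS, where it overlapped Sham and lay below SCI. Of the 10 pairs of members, 7 had ratios that did not overlap between SCI + SCS and SCI. The pairs share members, so these counts are not independent of each other. How often ratios between other genes fail to overlap was not tested, so the count has no background to stand against. Among individual genes, 29.5% of those tested had no overlap between these groups, in either direction. With 3 libraries against 3, an exact two-sided permutation test cannot go below p = 0.1, the value for the Cebpb to Cebpd ratio between SCI + SCS and SCI.

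**Figure D4:**
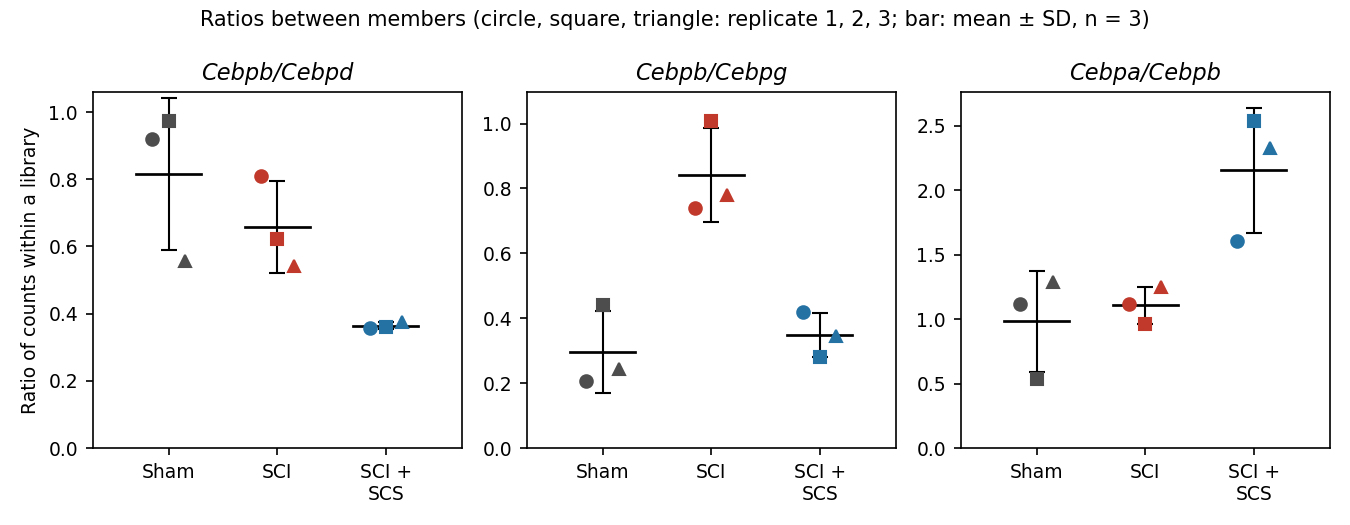
Ratio of counts between 2 members within each library (linear axis from 0), with points for replicates and bars for mean ± SD, n = 3. Cebpb/Cebpd lies at 0.357 to 0.377 in SCI + SCS, below all other libraries, and Cebpa/Cebpb at 1.61 to 2.53, above all others.

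Summed macrophage, fibroblast, lymphocyte and adipocyte markers stood above Sham in SCI, as did the family. Neuronal and oligodendrocyte markers went against the family in SCI against Sham. In SCI + SCS against SCI, 11 of 14 macrophage, 8 of 8 fibroblast, 10 of 12 lymphocyte and 6 of 8 adipocyte markers tested had a negative log2FC. The fibroblast and lymphocyte sums overlapped between these groups. All 11 skeletal muscle markers tested were negative too, with high sums only in SCI replicates 1 and 3. In SCI + SCS against SCI, all 12 neuronal, all 9 oligodendrocyte and all 8 astrocyte markers had a positive log2FC, opposite to most of the family. Summed astrocyte markers ranged over 5732 to 8763 CPM in Sham, 6653 to 10416 in SCI and 10224 to 13352 in SCI + SCS. The part of these markers in the differences was not tested. Per 1000 CPM of summed microglia and macrophage markers, Cebpb was at 20.3 ± 8.47 CPM in Sham, 10.9 ± 0.936 in SCI and 6.15 ± 1.39 in SCI + SCS. The stimulated libraries, at 4.82 to 7.60, lay below the SCI libraries at 9.99 to 11.9 on this scale. The marker sum is not a count of cells. It includes Gpnmb, at 832 to 1421 CPM in SCI and 554 to 661 CPM in SCI + SCS. Cebpe, at 0.0908 ± 0.0790 in Sham, 0.117 ± 0.0119 in SCI and 0.0678 ± 0.0126 in SCI + SCS, was also lower in SCI + SCS than in SCI without overlap. Cebpa was at 17.7 ± 2.38 in Sham, 12.1 ± 1.40 in SCI and 12.8 ± 1.03 in SCI + SCS, and its ranges of 11.1 to 13.7 and 12.2 to 14.0 in the injured groups overlapped. Cebpd, at 24.5 ± 5.40, 17.2 ± 4.27 and 16.9 ± 4.04, overlapped between the injured groups as well. Cebpg was at 69.7 ± 17.7 in Sham, 13.1 ± 1.19 in SCI and 17.6 ± 0.553 in SCI + SCS, without overlap between the injured groups. Its own means were 63.4 CPM in SCI and 63.7 CPM in SCI + SCS, so that gap came from the lower marker sum. On this scale the Sham means of Cebpa, Cebpb, Cebpd and Cebpg lay above their SCI means. Summed adipocyte markers were also lower in SCI + SCS than in SCI without overlap, although Lep was at 0 throughout and Adipoq averaged 0.150 CPM in SCI and was at 0 in SCI + SCS.

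For each member, the 3 genes with the most similar profile were found by Pearson's r of log2(CPM + 0.5) over the 9 libraries among 14324 genes. The libraries fall into 3 groups that differ in many genes, so a high r is common and is given as a description. Cebpa was most like Rnaset2 (r = 0.997), Gpnmb and Tyrobp (both 0.996), the last an adaptor of microglia and macrophages, and 735 genes exceeded an r of 0.95. Cebpd was most like Lrch3 (0.997), Pf4 (0.994) and Creb3l1 (0.994), with 814 genes above 0.95. Cebpg was most like Rab5c (0.994), Mgst1 (0.993) and Plin2 (0.992), with 305.

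Cebpb and Cebpe had fewer such genes, 33 and 64. Cebpb was most like Ccl2, the monocyte chemoattractant (r = 0.976), Bst1 (0.976) and Ccdc69 (0.974). Ccl2 was at 0.377, 1.72 and 0.858 CPM in Sham, 5.11, 9.49 and 6.27 in SCI, and 4.22, 2.44 and 2.46 in SCI + SCS. Cebpe was most like Ctsw (0.984), Cst7 (0.982) and Scimp (0.979), on a profile of only 0 to 52 counts per library. Ctsw was at 4.74 to 6.66 CPM in SCI and 0.822 to 1.39 CPM in SCI + SCS.

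Genes listed as bZIP partners of C/EBP, called bZIP genes below, were followed next. The list also held Cebpz, which is not a bZIP protein despite its name. Counts against Sham in this and the following lists stand beside 13.4% of all genes called higher and 13.6% called lower. Of 21 listed genes, 20 were tested against Sham, and 4 rose in SCI, with Atf3, Batf and Batf3 among them, while none fell. The median log2FC was 0.50, against 0.02 over all genes tested. Junb was listed at 0 in all 9 libraries and was not tested. Atf3, a stress-induced repressor and a marker of injured neurons, was at 3.28 to 6.60 CPM in Sham, 43.7 to 55.5 in SCI and 26.9 to 35.3 in SCI + SCS. It rose in SCI (log2FC 3.31, edgeR adjusted p = 0.00109), and its stimulated libraries lay below every SCI library (log2FC -0.63, edgeR adjusted p = 0.0866). Batf, a lymphocyte factor, behaved alike at lower counts (log2FC 3.51 in SCI, edgeR adjusted p = 0.00154; -0.89 in SCI + SCS against SCI, edgeR adjusted p = 0.121). Batf3, a factor of dendritic cells, rose in SCI (log2FC 2.04, edgeR adjusted p = 0.00923).

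The main C/EBP partners of the stress response changed little. Atf4 was at 175 to 196 CPM in Sham and 233 to 260 in SCI (log2FC 0.37, edgeR adjusted p = 0.0224), and Ddit3, which encodes CHOP, at 25.2 to 34.4 and 38.6 to 47.3 CPM (log2FC 0.49, edgeR adjusted p = 0.0318). Both missed the fold threshold. Jun had a log2FC of 0.97 (edgeR adjusted p = 0.00191) and Fos one of 0.73 (edgeR adjusted p = 0.0749). Between SCI + SCS and SCI, 0 of 20 tested bZIP genes were called, the median log2FC was -0.18 and 16 had a negative sign.

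Of 33 genes of cytokine signalling upstream of C/EBP, 29 were tested against Sham, and 14 rose in SCI while none fell (median log2FC 0.92). On log2(FPKM + 1), limma called 6 of them higher, and DESeq2 called 14 higher and 1 lower. Socs3, the feedback inhibitor of STAT3, was at 1.81 to 7.70 CPM in Sham and 21.9 to 36.1 in SCI (log2FC 2.61, edgeR adjusted p = 0.00768). Clcf1, a ligand of the interleukin-6 family, rose with a log2FC of 2.53 and Osmr, the oncostatin M receptor, with one of 2.32 (edgeR adjusted p = 0.00238 and 0.00270). Il6 itself, named after its values were seen, was at 0.295 to 0.377 CPM in Sham and 0.114 to 0.246 in SCI (log2FC -1.07, edgeR adjusted p = 0.0983). Between SCI + SCS and SCI, 0 of 28 were called and the median was -0.23. The 2 genes with the largest differences among those whose libraries did not overlap were Il1b (log2FC -1.10, edgeR adjusted p = 0.114) and Lif (log2FC -0.86, edgeR adjusted p = 0.259).

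Among 16 myeloid transcription factors that act with C/EBP, 14 were tested against Sham and 4 rose in SCI (median log2FC 0.91, none lower). Spi1, which encodes PU.1, was at 6.27 to 11.8 CPM in Sham, 55.8 to 76.7 in SCI and 43.0 to 56.0 in SCI + SCS (log2FC 2.96 in SCI, edgeR adjusted p = 0.00120). Irf8 and Egr2, factors of monocytes and macrophages, also rose (log2FC 1.89 and 1.45, edgeR adjusted p = 0.0043 and 0.0297). None of 15 was called between SCI + SCS and SCI, all 15 had a negative sign and the median was -0.24. Irf4 (log2FC -0.49, edgeR adjusted p = 0.240) and Trib2 (log2FC -0.45, edgeR adjusted p = 0.178), which encodes a protein that promotes the breakdown of C/EBPα, had the largest differences without overlap.

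Known targets of C/EBP in myeloid cells and in the acute phase response stood higher after injury. Of 25 granulocyte and myeloid targets, 21 were tested and 13 rose in SCI, none fell, and the median log2FC was 2.42. Mmp8, the neutrophil collagenase, was at 0 to 0.309 CPM in Sham and 2.60, 12.5 and 3.31 in SCI (log2FC 5.44, edgeR adjusted p = 0.00916). Clec7a, the β-glucan receptor of phagocytes, and Lyz2, the macrophage lysozyme, rose with log2FC of 4.85 and 3.15 (edgeR adjusted p = 0.00381 and 0.00597). None of 22 was called between SCI + SCS and SCI, and the median was -0.35. Mmp8 was at 0.893 to 2.11 CPM in SCI + SCS (log2FC -1.93, edgeR adjusted p = 0.143) and Mmp9, another neutrophil protease, had a log2FC of -0.96 (edgeR adjusted p = 0.214).

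Of 28 acute phase and inflammatory targets, 25 were tested against Sham and 16 rose in SCI with none lower (median log2FC 2.09). Lbp, the lipopolysaccharide-binding protein, was at 1.19 to 18.7 CPM in Sham and 106 to 138 in SCI (log2FC 3.72, edgeR adjusted p = 0.0131). Ccl3, a macrophage chemokine, and Mt2A, a metallothionein, rose with log2FC of 3.59 and 3.58 (edgeR adjusted p = 0.00182 and 0.00156). In SCI + SCS against SCI none of 24 was called, the median was -0.48, and 11 of the 24 had every stimulated library below every SCI library with none above, against 13.9% of all genes below. Pla2g2a, a secreted phospholipase, fell short of the call with the widest gap, at 6.34 to 7.27 CPM in SCI and 0.284 to 1.41 in SCI + SCS (log2FC -2.82, edgeR adjusted p = 0.0773). Ccl2 followed (log2FC -1.19, edgeR adjusted p = 0.103).

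Of 20 adipogenic targets, 14 were tested against Sham, and 5 rose and 2 fell in SCI (median log2FC 0.85). Fabp4, a fatty acid carrier of adipocytes and macrophages, was at 0.172 to 0.409 CPM in Sham, 23.1 to 33.8 in SCI and 6.47 to 12.1 in SCI + SCS. It rose in SCI (log2FC 6.40, edgeR adjusted p = 0.000783), as did Cfd, complement factor D (log2FC 3.86, edgeR adjusted p = 0.00209). Scd, a fatty acid desaturase that oligodendrocytes also use, fell (log2FC -3.72, edgeR adjusted p = 0.00103). None of 15 was called between SCI + SCS and SCI, and the median was -0.58, with Fabp4 at -1.67 and Cfd at -1.63 (edgeR adjusted p = 0.0719 for both). These lists share genes with the adipocyte, neutrophil and macrophage marker lists above. Some lists also share genes with each other, such as Il1b, Socs3, Csf1r and Atf3, so their counts are not separate.

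Integrated stress response targets and regulators of C/EBP protein sat near the middle of all genes. Of 22 stress response targets, 21 were tested, and 2 rose (Atf3 and Trib3) and 1 fell (Chac1) in SCI, with a median log2FC of 0.01 there and of -0.01 in SCI + SCS against SCI. Chac1, a glutathione-degrading enzyme, had a log2FC of -1.70 in SCI (edgeR adjusted p = 0.00728) and of 0.77 in SCI + SCS against SCI (edgeR adjusted p = 0.154), and Trib3, a pseudokinase induced by CHOP, one of 1.60 in SCI (edgeR adjusted p = 0.0217). Of 24 regulators, 23 were tested, and 2 rose and 1 fell in SCI (median 0.12, and -0.01 in SCI + SCS against SCI). Eif4ebp1, the translation repressor, and Hdac1, a histone deacetylase, rose (log2FC 2.005 and 1.08, edgeR adjusted p = 0.00247 and 0.00324). Fbxw7, a ubiquitin ligase subunit that marks C/EBP proteins for breakdown, fell (log2FC -1.996, edgeR adjusted p = 0.00355). In SCI + SCS against SCI none of the 21 or 23 genes was called. Eif4ebp1 had a log2FC of -0.55 there (edgeR adjusted p = 0.112).

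The absence of calls in these 8 lists between SCI + SCS and SCI is that of edgeR with adjusted p. At an unadjusted p under 0.05, where 10.9% of all genes were lower and 13.3% higher, 3 of 20 bZIP genes were lower and 0 higher, as against 10 and 1 of 28 for cytokine signalling, 3 and 0 of 15 for myeloid factors, 4 and 0 of 22 for granulocyte and myeloid targets, 9 and 0 of 24 for acute phase and inflammatory targets, 6 and 4 of 15 for adipogenic targets, 2 and 4 of 21 for stress response targets and 4 and 1 of 23 for regulators. DESeq2 called 1 cytokine gene (Il1b), 1 granulocyte and myeloid target (Mmp8), 3 acute phase and inflammatory targets (Ccl2, Il1b and Pla2g2a) and 3 adipogenic targets (Cfd, Fabp4 and Pparg, the last named after its values were seen), all lower, and none in the other 4 lists. On log2(FPKM + 1), limma called Pla2g2a lower.

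**Figure D5:**
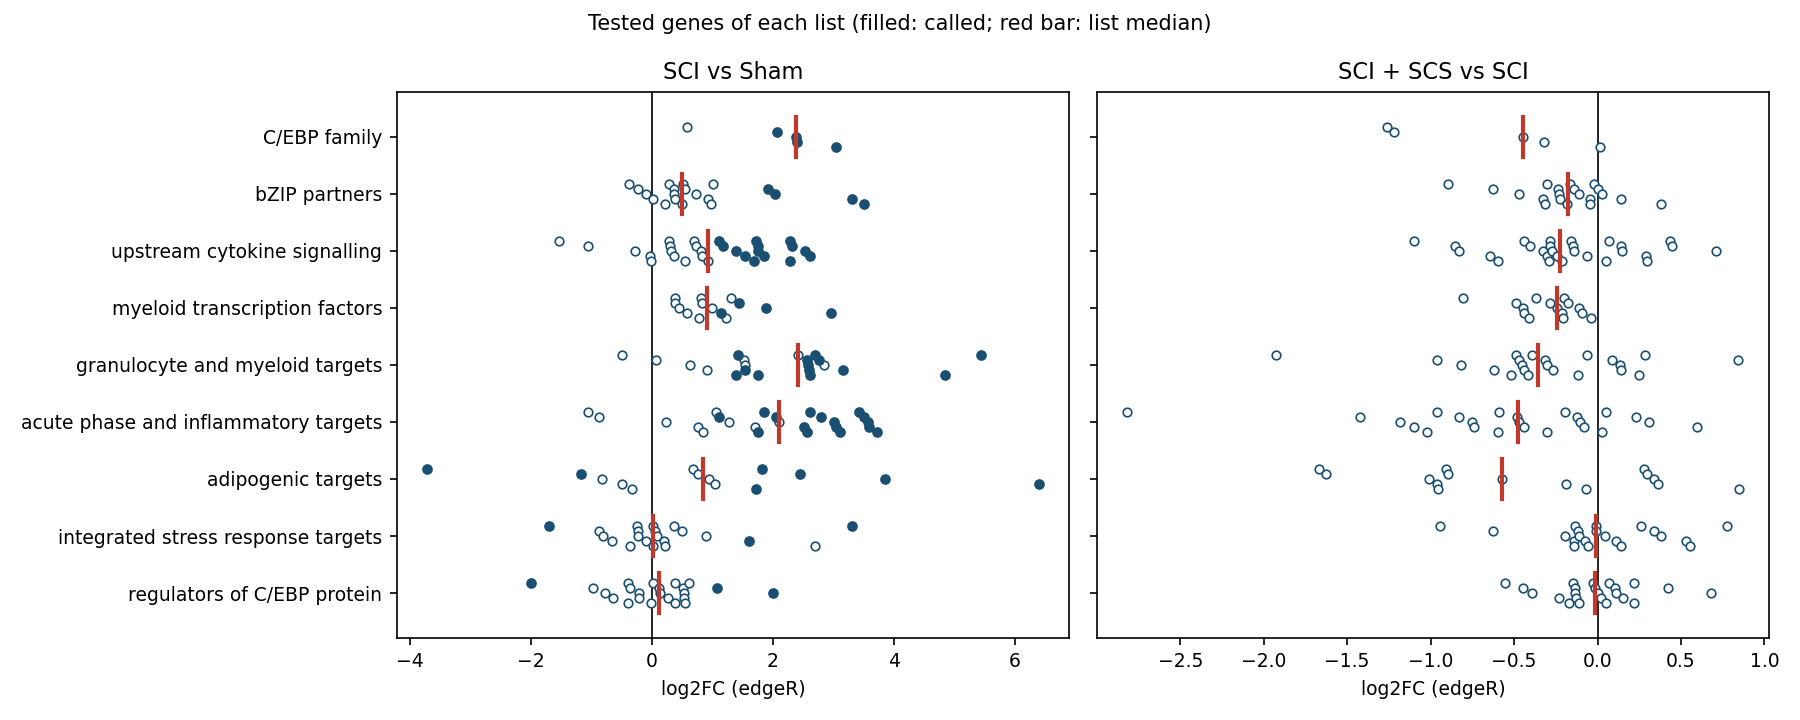
log2FC from edgeR of every tested gene (points; filled, called) in the C/EBP family and in 8 lists of partners, upstream signals, targets and regulators, for SCI against Sham and SCI + SCS against SCI, with list medians as red bars. In SCI against Sham the medians of the granulocyte and myeloid targets (2.42) and of the acute phase and inflammatory targets (2.09) stand far from 0, and in SCI + SCS against SCI no point is filled.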

How the data were processed

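Poly(A)-enriched RNA of 9 rat spinal cords, 1 library per rat, was sequenced and deposited by the authors as raw counts per gene and as FPKM (scaled to gene length and library size). Per the labels' processing notes, reads were trimmed with fastp 0.23.2 and aligned with HISAT2 2.2.1 to mRatBN7.2; the counting program and its strand setting are not given in the sources used here. Groups came from the treatment labels, and each group is 3 separate libraries.

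Counts were tested with edgeR 4.0.16 (quasi-likelihood, TMM, filterByExpr, R 4.3.3), using only the 6 libraries of each comparison. A gene was called at a Benjamini-Hochberg adjusted p under 0.05 and an absolute log2FC over 1. SE was the log2FC divided by the root of F, and 95% intervals used the t distribution of the fit. DESeq2 1.42.0 and limma 3.58.1 on log2(FPKM + 1) or log2(FPKM + 0.1) were alternatives; DESeq2 genes with no adjusted p counted as not called. CPM in the text are TMM-scaled over all 9 libraries. Totals of 62844376 to 88358570 counts per library set the precision; a count of 0 allows up to 3 counts.

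The members and gene lists were chosen with earlier results of these data known. Genes named from a list were the 3 with the largest absolute log2FC among those called in SCI against Sham and the 2 with the largest absolute log2FC in SCI + SCS against SCI whose libraries did not overlap; any bZIP gene could be named, and 1 is not reported here. Of 275 listed symbols, 263 were in the files. Robust edgeR and DESeq2 on all 9 libraries were added after seeing the data.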

Additional observations from a re-analysis of the deposited data

How the results depend on the processing

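Of 281 values of member log2FC over the alternatives, 262 kept their sign and their side of the thresholds, 7 lost a call, 9 gained one and 3 changed sign; the cause was not tested for any of them. The alternatives include the unadjusted p and the adjusted p with no fold threshold, which reuse the main fit with the same log2FC. The calls gained by Cebpg against Sham, and by Cebpe in SCI + SCS against SCI, came only from these changes of threshold. Cebpe in SCI against Sham lost its call with the replicate block (edgeR adjusted p = 0.0510) and on the log2(FPKM + 1) scale (log2FC 0.32). In SCI + SCS against SCI, the members called were 0 in edgeR, 1 by DESeq2 and by DESeq2 on all 9 libraries, 2 at unadjusted p, and 0 to 1 without 1 replicate; Cebpb had an adjusted p of 0.218 with the replicate block and of 0.00101 by DESeq2 on all 9 libraries. The Cebpg log2FC turned to -0.0055, -0.031 and -0.023 without SCI replicate 2, SCI replicate 3 and SCI + SCS replicate 2. In SCI + SCS against Sham the replicate block left 1 member called, with Cebpd at adjusted p = 0.0552, and DESeq2 on all 9 libraries called Cebpe (adjusted p = 0.0212).

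Genes called in SCI + SCS against SCI were 1 in edgeR (988 at unadjusted p), 759 by DESeq2, 662 by DESeq2 on all 9 libraries, 20 and 19 by limma on log2(FPKM + 1) and log2(FPKM + 0.1), 0 with at least 10 counts in every library, 0 with the replicate block, and 0 to 123 without 1 replicate. In SCI against Sham they were 8796 with no fold change threshold and 2649 on log2(FPKM + 1), and in SCI + SCS against Sham 5710, 921, 715 with the replicate block and 950 to 2891 without 1 replicate. Same-numbered samples did not deviate together (r from -0.33 to 0.24), so the numbers were not taken as pairs. Precision was set by 3 libraries per group, and for Cebpe by its 0 to 52 counts per library. Between SCI + SCS and SCI, the log2FC of Cebpe passed that of Cebpb in size without SCI replicate 2 (-1.19 against -1.13), SCI replicate 3 (-1.356 against -1.353) and SCI + SCS replicate 3 (-1.34 against -1.25). Against Sham, limma on log2(FPKM + 1) called 6 cytokine, 3 myeloid factor, 12 granulocyte and myeloid, 12 acute phase and 4 adipogenic genes higher, where edgeR called 14, 4, 13, 16 and 5 and DESeq2 14, 5, 17, 16 and 5.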
